A study of Mus musculus with 6 samples.

Results

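Imprinted growth genes are genes of which a cell uses mainly the copy inherited from one parent and which act on the size of the embryo and newborn. The 10 described here are H19, Igf2, Igf2r, Grb10, Dlk1, Meg3, Plagl1, Peg3, Mest and Cdkn1c, found by symbol among the 46983 genes of the table, with 1 row for each. They were chosen by results for the 2 ages, that is by the RPKM values and differences given here, so their levels are a description, without a test. RNA-seq was performed on aortic valves of wild type C57BL/6J mice at postnatal day 2 (PND2), when the valve grows, and at 4 months, when it is maintained. There were 3 libraries per age, numbered as biological replicates, and each was made from a pool of the valves of 5 to 6 mice. No treatment was given at either age. Values are RPKM, that is reads scaled by the exonic length of the gene and by the total of the library. Library totals were 38994657, 30518001 and 29260736 at PND2 and 37350916, 23810507 and 28943701 at 4 months. For a gene with 1 kb of exons, a single read equalled 0.0256 RPKM in the deepest library and 0.0420 RPKM in the shallowest.

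Imprinted genes lie in clusters, and each cluster has a control region whose DNA methylation differs between the maternal and the paternal chromosome. In general, genes read from the paternal copy favor growth, as Igf2, Dlk1, Peg3, Plagl1 and Mest do, and genes read from the maternal copy restrain it, as H19, Igf2r, Grb10 and Cdkn1c do. Meg3, a maternally read noncoding RNA, shares a cluster with Dlk1. Many of these genes are known to be abundant before birth and to be switched off in most organs as growth slows. The libraries do not distinguish the parental copies, so imprinting itself was not measured.

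All 10 genes were lower in every 4 month library than in every PND2 library. Of all 25903 genes tested, 29.9% showed such a complete separation in that direction and 20.0% in the other, and since the 10 genes were chosen with this contrast known nothing is read from their count. The log2 fold changes of the 10 genes at 4 months over PND2, on the scale of log2(RPKM + 0.1), ran from -6.43 for Dlk1 to -1.32 for Meg3, with a median of -3.81, while the median of all genes tested was -0.14. The 5 paternally expressed genes had a median of -4.43 (from -6.43 to -2.16) and the 5 maternally expressed genes one of -2.06 (from -6.40 to -1.32). The 2 ranges overlapped, and nothing is read from the difference of these medians. The summed level of the 10 genes was 3700, 3528 and 4454 RPKM in the PND2 libraries and 185, 198 and 160 RPKM in the 4 month libraries. Whether this reflects fewer cells that express the genes or less RNA in each cell cannot be told apart in whole valves.

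**Figure D1:**
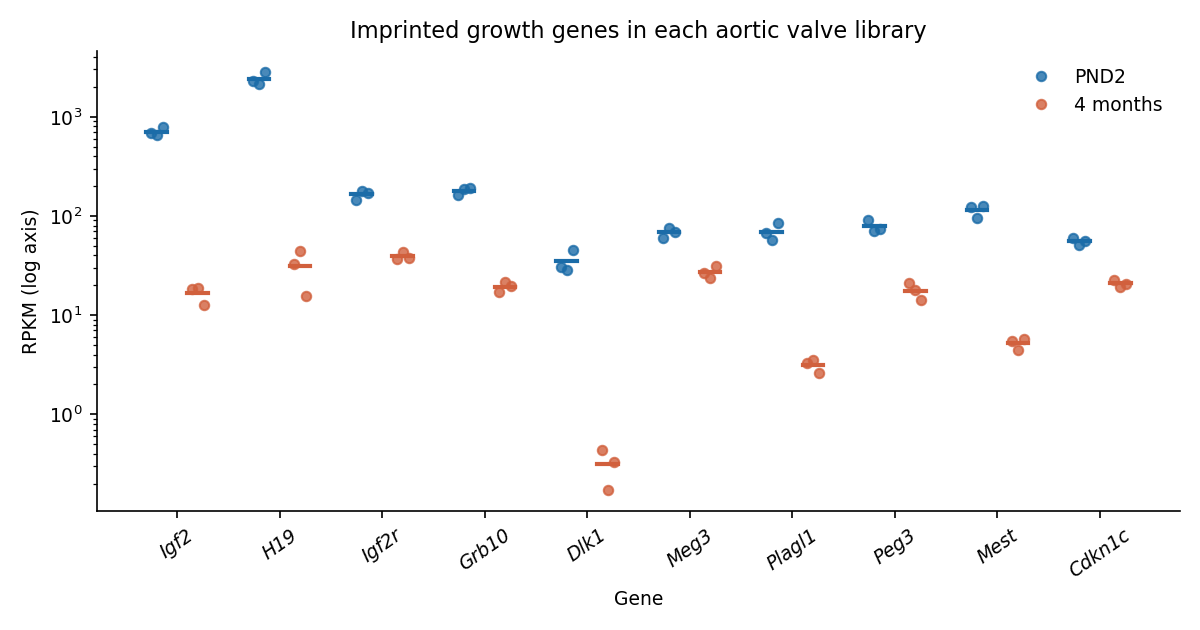
RPKM of each imprinted growth gene (log axis) in the 3 PND2 libraries (blue points) and the 3 libraries from 4 months (orange points), with a line at the mean of each age. For every gene the orange points lie below the blue points, with the widest gap for Dlk1 (30.5, 28.6 and 45.6 RPKM against 0.435, 0.171 and 0.330) and the narrowest for Cdkn1c and Meg3.

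Igf2 and H19 are neighbors on chromosome 7 and compete for the same enhancers. Igf2 (ENSMUSG00000048583, mm10 chr7:142650766-142666816, minus strand) encodes insulin-like growth factor 2, a secreted ligand that drives fetal growth through the receptor Igf1r. It stood at 685, 651 and 789 RPKM at PND2 and at 18.21, 18.96 and 12.54 RPKM at 4 months, that is 708 ± 71.9 against 16.6 ± 3.51 (mean ± SD, n = 3 each). The lowest PND2 library was 34.4 times the highest library of 4 months, and the means differed 42.7-fold (log2 fold change -5.43, SE 0.17). Among 25496 nuclear protein-coding genes and long noncoding RNAs, Igf2 ranked 85th at PND2 and 5746th at 4 months.

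H19 (chr7:142575529-142578143, minus strand) is a long noncoding RNA that restrains growth and carries the hairpin of miR-675. Its level was 2277, 2138 and 2848 RPKM at PND2, which placed it 10th of the 25496 genes, and 32.8, 44.7 and 15.4 RPKM at 4 months, where it ranked 3269th. The 4 month libraries varied among themselves (31.0 ± 14.7) but lay far below the PND2 libraries (2421 ± 376), and the log2 fold change was -6.40 (SE 0.36). H19 was 3.33, 3.28 and 3.61 times as abundant as Igf2 in the PND2 libraries and 1.80, 2.36 and 1.23 times in those from 4 months. Both scales are per kilobase of all annotated exons, and on them H19 exceeded Igf2 in each of the 6 libraries, with a smaller ratio in every library of 4 months. The Igf2 exon of 3287 bases alone was at 29.1, 29.4 and 20.4 RPKM at 4 months. The order in 4 month replicate 3, where H19 was at 15.4 RPKM, thus depends on the length used for Igf2.

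Each of these genes holds a miRNA, and the mature sequences are shown because they are the products through which H19 and Igf2 are known to act besides their main transcripts. They come from RefSeq (GRCm38.p6), are written 5′ to 3′ and carry the seed, bases 2 to 8, in capitals. The miR-675 arms lie at chr7:142577112-142577133 (5p) and chr7:142577078-142577099 (3p) within an H19 exon, and the miR-483 arms at chr7:142654968-142654989 (5p) and chr7:142654932-142654952 (3p) within an Igf2 intron, all on the minus strand.
miR-675-5p: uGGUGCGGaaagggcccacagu
miR-675-3p: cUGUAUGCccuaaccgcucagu
miR-483-5p: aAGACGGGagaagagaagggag
miR-483-3p: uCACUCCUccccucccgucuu
No seed is shared among the 4 arms. The libraries did not select small RNAs, so reads on these rows come from longer transcripts and mature miRNAs were not measured. The Mir675 row held 1907, 1820 and 2457 RPKM at PND2 and 24.9, 34.0 and 16.5 RPKM at 4 months, which follows H19, in whose exon it lies. The Mir483 row held 17, 7 and 12 reads at PND2 and 0, 2 and 0 reads at 4 months. The intronic hairpin was thus close to the limit of detection beside the exons of Igf2. The short genes Gm27786 and Gm27483, annotated on the opposite strand within H19 exons, had 2552, 2382 and 3038 RPKM and 1724, 1657 and 2324 RPKM at PND2, levels like that of H19 itself. Values of genes that overlap another gene therefore cannot be assigned to one strand here.

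Igf2 is known to have several promoters that are used at different stages. RefSeq gave 4 start sites, and each was set beside the exon nearest to it in the exon table. The exon at the start site chr7:142657496 had the highest RPKM, with 354, 275 and 389 at PND2 and 7.37, 8.09 and 7.29 at 4 months. The exon at the start site chr7:142661271, farther upstream, held 77.9, 83.1 and 89.4 RPKM at PND2 and 1.503, 1.797 and 0.185 RPKM at 4 months, and part of it overlaps an exon of the antisense gene Igf2os. Both exons were thus lower at 4 months, at 2.24% and 1.39% of their PND2 means, and their order was the same in all 6 libraries. The start in between lies inside a longer exon with 37.5, 46.1 and 74.3 RPKM at PND2 and 1.21, 1.72 and 0.338 RPKM at 4 months. The most upstream start, chr7:142666816, belongs to an exon of 41 bases with 13, 6 and 2 reads at PND2 and none in the libraries of 4 months.

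The bases before 2 of the Igf2 starts are shown to let their composition be compared. They are labeled most used and least used by the RPKM of the nearest exon only, which does not measure start use by itself. The exon of the start in between held more reads at PND2, with 1645, 1585 and 2447 against 1503, 914 and 1241. The exon of 41 bases is shorter than a read of 50 nt. Each sequence is the 250 bases before the start from RefSeq (GRCm38.p6), read 5′ to 3′ on the minus strand, with every CG dinucleotide, the target of DNA methylation, in capitals.
Igf2, most used start, chr7:142657497-142657746: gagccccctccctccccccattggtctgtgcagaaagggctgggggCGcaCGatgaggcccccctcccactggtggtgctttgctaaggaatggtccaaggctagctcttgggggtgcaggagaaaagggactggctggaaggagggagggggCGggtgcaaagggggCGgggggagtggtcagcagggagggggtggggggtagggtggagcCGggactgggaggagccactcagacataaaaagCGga
Igf2, least used start, chr7:142666817-142667066: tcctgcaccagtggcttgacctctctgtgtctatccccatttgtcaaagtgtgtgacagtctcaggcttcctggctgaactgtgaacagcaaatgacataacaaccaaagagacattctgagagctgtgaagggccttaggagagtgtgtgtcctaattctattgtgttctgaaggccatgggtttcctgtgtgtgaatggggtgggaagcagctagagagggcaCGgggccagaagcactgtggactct
The first holds 6 CG dinucleotides, which is the median of all 32851 promoters of this length, and the second holds 1, more than 7.87% of promoters do. The GC box GGGCGG, searched on both strands, occurs 2 times in the first and not in the second, and 32.7% of all promoters hold at least 1. These counts describe the sequence only.

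Igf2r, Grb10 and Cdkn1c restrain growth at successive points after the ligand. Igf2r (chr17:12682406-12769664, minus strand) encodes the receptor that takes up IGF2 and delivers it to lysosomes. It was at 146, 177 and 171 RPKM at PND2 and at 37.2, 43.4 and 37.7 RPKM at 4 months (165 ± 16.3 against 39.4 ± 3.46), a 4.18-fold difference (log2 fold change -2.06, SE 0.11). At 4 months Igf2r had the highest mean of the 10 genes, although its range overlapped that of H19. The ratio of ligand to receptor RNA, Igf2 over Igf2r per kilobase, was 4.68, 3.68 and 4.62 at PND2 and 0.490, 0.437 and 0.333 at 4 months, so that Igf2 was the more abundant RNA in each PND2 library and Igf2r in each library of 4 months. The antisense RNA Airn, which silences the paternal Igf2r copy, stood at 25.4, 27.7 and 29.7 RPKM at PND2 and at 8.11, 8.38 and 8.86 RPKM at 4 months (log2 fold change -1.69, SE 0.11, limma adjusted p = 7.9e-05). Its annotated exons do not overlap those of Igf2r.

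Grb10 (chr11:11930508-12038683, minus strand) encodes an adaptor that binds insulin and IGF1 receptors and dampens their signal. It measured 161, 185 and 190 RPKM at PND2 and 17.002, 21.63 and 19.57 RPKM at 4 months (179 ± 15.6 against 19.4 ± 2.32), a 9.22-fold difference (log2 fold change -3.20, SE 0.12). Cdkn1c (chr7:143458350-143461050, minus strand) encodes p57, an inhibitor of cyclin-dependent kinases, and was at 60.3, 50.6 and 56.0 RPKM at PND2 and at 22.8, 19.3 and 20.5 RPKM at 4 months. Its means differed 2.67-fold (55.6 ± 4.88 against 20.9 ± 1.77, log2 fold change -1.41, SE 0.11). At PND2 the level of Grb10 overlapped that of Igf2r and lay above that of Cdkn1c, whereas at 4 months Grb10 and Cdkn1c overlapped.

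Grb10 has a major promoter and a downstream one that is known for its use in neurons from the paternal copy. The exon at the first start, chr11:12037420, had 88.0, 134 and 138 RPKM at PND2 and 10.96, 6.400 and 12.997 RPKM at 4 months. The exon of the downstream start, chr11:12027971, had 0 reads in each of the 6 libraries, though at 69 bases it is short. The 250 bases before each start (RefSeq, GRCm38.p6, minus strand, 5′ to 3′, CG in capitals) are shown because one exon was read at both ages and the other at neither.
Grb10, start in use, chr11:12037421-12037670: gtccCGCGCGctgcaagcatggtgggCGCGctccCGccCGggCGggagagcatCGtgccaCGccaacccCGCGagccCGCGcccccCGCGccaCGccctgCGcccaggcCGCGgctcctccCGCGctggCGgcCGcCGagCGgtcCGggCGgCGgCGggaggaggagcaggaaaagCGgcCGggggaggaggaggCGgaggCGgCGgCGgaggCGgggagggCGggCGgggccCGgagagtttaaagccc
Grb10, start without reads, chr11:12027972-12028221: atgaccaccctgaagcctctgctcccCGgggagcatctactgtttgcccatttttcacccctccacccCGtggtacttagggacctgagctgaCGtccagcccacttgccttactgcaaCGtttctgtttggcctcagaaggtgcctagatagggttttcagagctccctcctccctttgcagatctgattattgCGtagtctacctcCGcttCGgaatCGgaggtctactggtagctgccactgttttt
The first window holds 40 CG dinucleotides, more than 98.7% of promoters, with 5 GC boxes. The second holds 8, more than 57.0% of promoters, with no GC box.

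**Figure D2:**
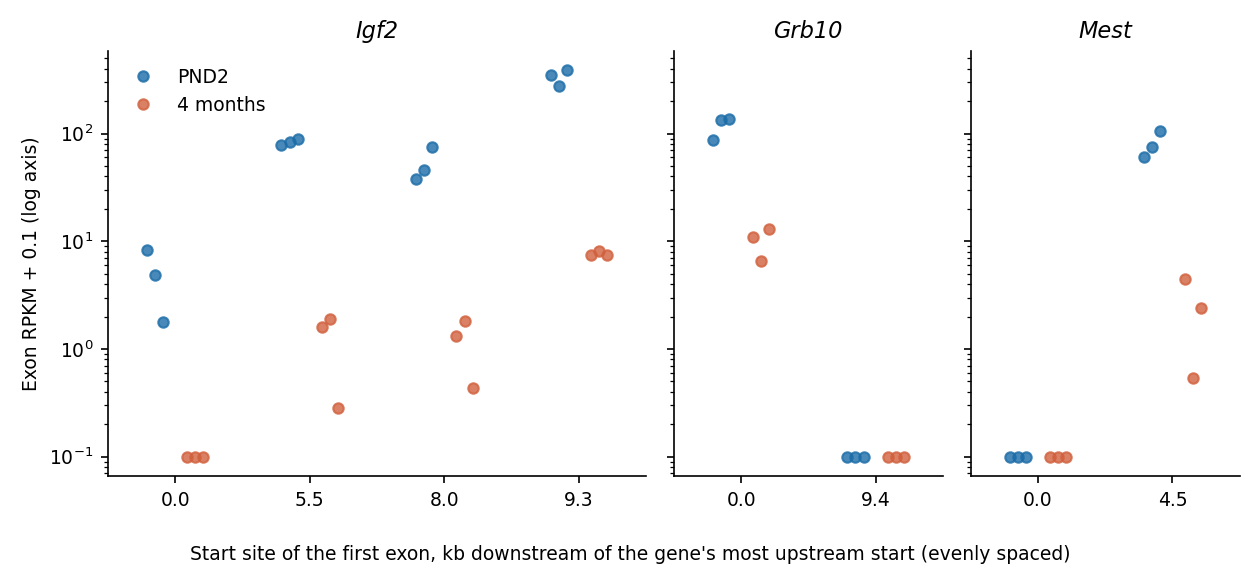
RPKM + 0.1 (log axis) of the exon nearest to each annotated start site of Igf2, Grb10 and Mest in the PND2 (blue) and 4 month (orange) libraries, ordered from the most upstream start (0 kb) and evenly spaced. Points at 0.1 are exons without reads. The most downstream Igf2 start has the highest values at both ages, and 1 start each of Grb10 and Mest has no reads at either age.

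Dlk1 and Meg3 lie next to each other on chromosome 12. Dlk1 (chr12:109452823-109463336, plus strand) encodes a Notch-like transmembrane protein that holds back the differentiation of precursor cells such as preadipocytes. It had 30.5, 28.6 and 45.6 RPKM at PND2 but only 0.435, 0.171 and 0.330 RPKM at 4 months, which stand for 92, 23 and 54 reads. The means (34.9 ± 9.36 against 0.312 ± 0.133) differed 112-fold, the widest ratio of the 10 genes, and the log2 fold change was -6.43 (SE 0.31). The added 0.1 weighs on values this low, and with 1 added instead the log2 fold change was -4.75. Per kilobase of all annotated exons, Dlk1 was the least abundant of the 10 genes at both ages, and its range overlapped with no other. The Dlk1 exon of 1094 bases alone was at 82.7, 78.3 and 128 RPKM at PND2. Its last place at PND2 thus depends on the length used for Dlk1.

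Meg3 (chr12:109541001-109571726, plus strand), a long noncoding RNA with growth-restraining activity, had closer levels at the 2 ages than its neighbor. It stood at 59.6, 75.8 and 69.5 RPKM at PND2 and at 26.9, 23.9 and 31.0 RPKM at 4 months (68.3 ± 8.14 against 27.2 ± 3.55), a 2.51-fold difference and the narrowest of the 10 genes (log2 fold change -1.32, SE 0.13). The ratio of Meg3 to Dlk1, per kilobase of all annotated exons, was therefore 1.96, 2.65 and 1.52 at PND2 and 61.7, 140 and 93.9 at 4 months. In the same cluster the maternally expressed noncoding RNA Rian was at 23.4, 25.4 and 26.3 RPKM at PND2 and at 9.36, 9.93 and 10.9 RPKM at 4 months, with a log2 fold change of -1.31 (SE 0.11, limma adjusted p = 0.00023). Meg3 and Rian thus differed between the ages by nearly the same factor.

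Plagl1, Peg3 and Mest are paternally expressed. Plagl1 (chr10:13060504-13131694, plus strand), a zinc-finger transcription factor known to regulate other imprinted genes, measured 66.7, 57.6 and 84.1 RPKM at PND2 and 3.28, 3.51 and 2.62 RPKM at 4 months (log2 fold change -4.42, SE 0.17). Mest (chr6:30723547-30748465, plus strand), an enzyme of the alpha/beta hydrolase family found in mesoderm, measured 123, 94.2 and 127 RPKM at PND2 and 5.50, 4.45 and 5.72 RPKM at 4 months (log2 fold change -4.43, SE 0.15). Peg3 (chr7:6703892-6730421, minus strand), a zinc-finger protein that controls fetal growth and maternal care, measured 90.7, 70.3 and 74.4 RPKM at PND2 and 20.8, 17.8 and 14.3 RPKM at 4 months (log2 fold change -2.16, SE 0.16). The means of Plagl1 and Mest differed 22.1-fold and 21.9-fold and that of Peg3 only 4.45-fold. At PND2 the ranges of Peg3, Plagl1 and Meg3 overlapped from neighbor to neighbor, but at 4 months Plagl1 lay below Mest and Mest below Igf2, Peg3 and the other genes except Dlk1.

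The 10 genes thus formed different orders at the 2 ages. At PND2 the order of mean RPKM, per kilobase of all annotated exons, was H19, Igf2, Grb10, Igf2r, Mest, Peg3, Plagl1, Meg3, Cdkn1c and Dlk1. The last place of Dlk1 there depends on the length used for it. The libraries separated H19 from Igf2, Igf2 from Grb10, Igf2r from Mest, Mest from Peg3 and Cdkn1c from Dlk1, and the other neighbors overlapped. At 4 months the order was Igf2r, H19, Meg3, Cdkn1c, Grb10, Peg3, Igf2, Mest, Plagl1 and Dlk1. Here only Meg3 and Cdkn1c, Igf2 and Mest, Mest and Plagl1, and Plagl1 and Dlk1 were separated among neighbors.

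Exon values come from the same reads and the same contrast and are given as a description. The exon table lists 287 exons for the 10 genes, many of which overlap because they belong to alternative transcripts. An RPKM of 1 in at least 3 libraries was reached by 264, of which 23 passed through the PND2 libraries alone, 11 of them in Plagl1 and 8 in Dlk1. Among the exons that passed, the median exon of H19 kept 1.24% of its PND2 mean, that of Igf2 2.12%, that of Igf2r 21.3% and that of Meg3 40.1%. The 17 exons of Peg3, 1 of which passed through the PND2 libraries alone, had values from 3.76% to 23.9%, and the 5 exons of Cdkn1c had values from 32.3% to 41.5%. Mest has 2 groups of start sites, of which the upstream one at chr6:30733506 had 0 reads in all libraries, whereas the exon at chr6:30738050 had 60.5, 75.0 and 106 RPKM at PND2 and 4.40, 0.441 and 2.30 RPKM at 4 months. The exon at the RefSeq start of Dlk1 had 1 read in the 6 libraries together. The exons of Mest that overlap Copg2, on the opposite strand, can share reads with it.

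The promoter table held 15 promoters of 8 of the 10 genes, with none for H19 and Cdkn1c. In addition to the GC box, the TATA box TATAAA was searched on both strands of the 250 bases before each start. The TATA box was found 2 times at the first Meg3 start, as matches on opposite strands that overlap in a single stretch. It was found at no other of the 15 promoters, against 12.4% of all promoters with at least 1. These matches describe letters in the windows and not binding.

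The other genes of the same imprinted clusters were then examined with limma across all 25903 genes, of which 21.1% were lower and 14.7% higher at 4 months at an adjusted p under 0.05 (5463 and 3810 genes), together 35.8%. Scaling the libraries to equal medians turned this split into 4129 lower and 4601 higher. Of 31 listed neighbors 29 were in the table and 26 were tested. Of these 15 fell (57.7%), 4 rose (15.4%) and 7 did not pass, with a median log2 fold change of -0.97. Among the 15, Igf2os and Copg2 have exons that overlap those of Igf2 and Mest, so they can share reads with them. The list was also chosen with earlier results of these data known, so the shares are a description. The summed cardiomyocyte, endothelial and mitotic markers, given below, were also lower in every 4 month library, and the smooth muscle sum was higher. The part of these cell types in the levels of the neighbors was not tested. Of the 15 that fell, Tspan32, Begain, Usp29 and Zim3, named after their values were seen, lost their call in 4, 6, 7 and 7 of 14 or 15 alternatives, among them the fit without PND2 replicate 3. Ins2, Th and Phlda2 were below the minimum of 0.1 RPKM in 3 libraries.

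Igf2os, antisense to Igf2, fell from 7.65, 7.16 and 8.56 RPKM at PND2 to 0.196, 0.189 and 0.0647 RPKM at 4 months (log2 fold change -5.03, SE 0.30, limma adjusted p = 6.4e-05), and it shares exonic bases with Igf2. Its 4 month level is near the 0.1 RPKM that was added, and with 1 RPKM added in its place the log2 fold change was -2.93. Ddc, which encodes the enzyme that makes dopamine and serotonin and lies next to Grb10, fell from 29.8, 22.9 and 43.1 RPKM to 0.918, 3.92 and 1.48 RPKM (log2 fold change -4.05, SE 0.49, limma adjusted p = 0.00104). Zim1, a zinc-finger gene next to Peg3, fell from 16.9, 11.1 and 15.6 RPKM to 1.48, 1.53 and 0.892 RPKM (log2 fold change -3.40, SE 0.26, limma adjusted p = 0.00018). The log2 fold change of Zim1 ranged from -3.58 to -2.75 over the alternatives. In these 3 genes, as in Airn and Rian above, no library of 4 months reached the lowest PND2 library. Smaller falls were seen in Copg2, a coatomer subunit that overlaps Mest (48.8 ± 5.00 to 19.01 ± 1.45 RPKM), in the potassium channel Kcnq1 (10.3 ± 2.29 to 4.75 ± 1.53 RPKM) and in the phosphatase regulator Phactr2 (21.2 ± 2.78 to 11.6 ± 1.08 RPKM), with limma adjusted p of 0.00024, 0.0139 and 0.00307.

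Some neighbors of the same domains did not pass. Cd81, a tetraspanin between H19 and Cdkn1c, measured 376 ± 37.1 RPKM at PND2 and 356 ± 30.9 RPKM at 4 months, with overlapping libraries. Nap1l4, a histone chaperone near Cdkn1c, measured 131 ± 17.3 and 101 ± 7.55 RPKM (limma adjusted p = 0.0514), and its libraries did not overlap. Osbpl5, a lipid transfer protein, measured 35.2 ± 4.82 and 40.0 ± 3.07 RPKM, and Tssc4 29.6 ± 6.80 and 21.6 ± 2.22 RPKM. The 4 genes that rose, named after their values were seen, were all low. Dio3, which inactivates thyroid hormone and lies beyond Meg3, had 0, 0.0161 and 0 RPKM at PND2 and 0.251, 0.269 and 0.425 RPKM at 4 months (limma adjusted p = 0.00624). Slc22a3, a transporter of organic cations next to Igf2r, had 0.341 ± 0.133 and 1.65 ± 0.540 RPKM (limma adjusted p = 0.00625). Slc22a2 and Slc22a18 had at most 0.291 and 2.39 RPKM in any library, and their calls were lost in 8 of 14 and 8 of 15 alternatives. The count of 4 became 2 without any one of 5 of the libraries.

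**Figure D3:**
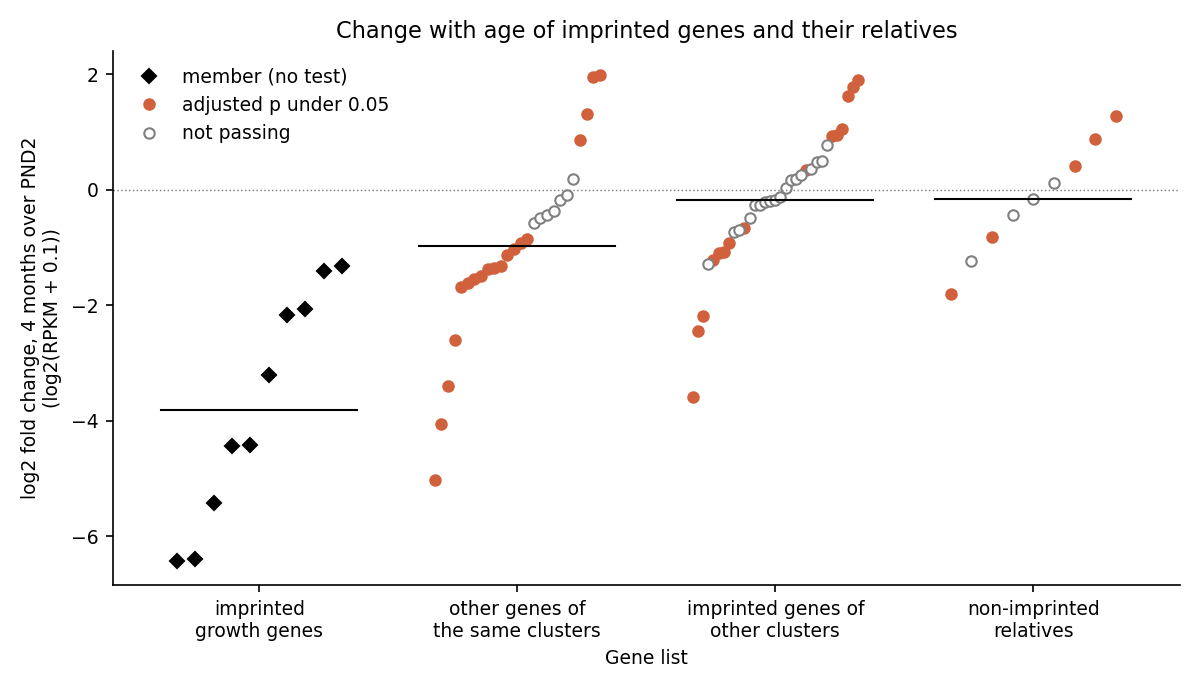
Log2 fold change at 4 months over PND2, on the scale of log2(RPKM + 0.1), of the imprinted growth genes (black diamonds, no test), of their neighbors in the same imprinted clusters, of imprinted genes in other clusters and of relatives that are not imprinted. Filled orange points passed limma at an adjusted p under 0.05, open points did not, and bars are medians (-3.81, -0.97, -0.18 and -0.16).

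Of 34 listed imprinted genes of other clusters, 33 were tested, 8 fell (24.2%), 7 rose (21.2%) and 18 did not pass, with a median log2 fold change of -0.18. These shares lie near those of all genes tested, at 21.1% lower and 14.7% higher. The amino acid transporter Slc38a4 fell from 102, 93.4 and 96.2 RPKM to 9.34, 10.5 and 5.31 RPKM (log2 fold change -3.58, SE 0.24, limma adjusted p = 9.8e-05). Asb4, which helps ubiquitin ligases find their substrates in vessels, fell from 10.3 ± 0.739 to 1.83 ± 0.362 RPKM (limma adjusted p = 0.00019). Herc3, Ppp1r9a, Mcts2 and the growth suppressor Ndn also fell, with log2 fold changes from -1.21 to -0.66 and limma adjusted p of at most 0.00354.

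The rises included decorin (Dcn), a proteoglycan that binds collagen and TGF-beta, from 1054 ± 60.0 to 3961 ± 506 RPKM (log2 fold change 1.90, SE 0.16, limma adjusted p = 0.00027). The noncoding RNA Peg13 rose from 9.62, 12.0 and 12.8 RPKM to 44.2, 36.2 and 38.9 RPKM, and Trappc9, in whose intron it lies, from 6.66 ± 1.33 to 12.6 ± 1.44 RPKM (limma adjusted p = 0.00019 and 0.00736). Zrsr1, a retrogene of a splicing factor, rose from 5.91 ± 0.733 to 18.4 ± 1.09 RPKM (limma adjusted p = 0.00022). Pon3 and Atp10a rose with log2 fold changes of 0.95 and 1.05. Snurf rose by 0.35 on the log2 scale (limma adjusted p = 0.0415), a call lost in 10 of 15 alternatives. Among abundant genes that did not pass, Gnas, the stimulatory G protein subunit, had 211 ± 13.6 and 175 ± 7.06 RPKM, H13 29.0 ± 3.44 and 26.6 ± 2.28 RPKM, Nnat 24.3 ± 4.68 and 21.8 ± 7.99 RPKM and Pon2 20.3 ± 1.80 and 24.3 ± 0.661 RPKM.

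Relatives of the imprinted growth genes that are expressed from both copies were set beside them. Of 9 tested, 2 fell (22.2%, against 21.1% of all genes), 3 rose (33.3%, against 14.7%) and 4 did not pass, with a median log2 fold change of -0.16. Igf1, the ligand related to Igf2, fell from 34.7, 34.4 and 41.0 RPKM to 20.6, 23.5 and 18.2 RPKM (log2 fold change -0.82, SE 0.13, limma adjusted p = 0.00284). Igf1 was thus at 36.7 RPKM where Igf2 was at 708 RPKM at PND2, and at 20.8 RPKM where Igf2 was at 16.6 RPKM at 4 months. The cation-dependent mannose phosphate receptor M6pr, a counterpart of Igf2r, had 36.9 ± 2.35 and 40.1 ± 1.85 RPKM and did not pass. Grb14, a sister of Grb10, rose from 7.98, 12.1 and 11.8 RPKM to 18.9, 20.5 and 18.5 RPKM (log2 fold change 0.88, SE 0.17, limma adjusted p = 0.00754).

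Of the kinase inhibitors related to Cdkn1c, Cdkn1a (p21) rose from 32.3, 29.1 and 23.4 RPKM to 56.4, 64.6 and 87.1 RPKM (log2 fold change 1.28, SE 0.19, limma adjusted p = 0.00222). Cdkn1b (p27) rose from 26.7 ± 3.91 to 35.4 ± 3.15 RPKM (limma adjusted p = 0.0439), a call lost in 8 of 15 alternatives. The range of Cdkn1c was above those of Cdkn1a and Cdkn1b at PND2 and below them at 4 months. Plag1, related to Plagl1 and an activator of Igf2 transcription, was lower at 4 months, at 0.925 ± 0.254 RPKM after 3.40 ± 0.0809 RPKM (limma adjusted p = 0.00203). Plagl2 had 7.10 ± 1.52 and 6.26 ± 0.269 RPKM and did not pass, nor did Dlk2 (0.444 ± 0.289 and 0.113 ± 0.0292 RPKM) or Grb7, named after its values were seen (0.322 ± 0.172 and 0.198 ± 0.0449 RPKM).

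Of 16 tested genes of the IGF system, 7 were lower (43.8%, against 21.1% of all genes) and 5 higher (31.2%, against 14.7%), with a median log2 fold change of -0.35. The RNA-binding proteins Igf2bp3, Igf2bp1 and Igf2bp2, which bind Igf2 mRNA, and the secreted binding protein Igfbp2 fell with log2 fold changes of -4.27, -4.20, -3.18 and -2.41 (limma adjusted p of at most 0.0104), and the binding proteins Igfbp4, Igfbp5, Igfbp6 and Igfbp7 and the adaptor Irs2 rose with log2 fold changes from 1.06 to 1.97 (limma adjusted p of at most 0.00143). With 1 RPKM added in place of 0.1 the first pair of these falls became -2.95 and -1.79. The receptors Igf1r (22.8 ± 3.02 to 10.5 ± 2.11 RPKM) and Insr (33.1 ± 3.82 to 24.9 ± 2.85 RPKM, a call lost in 9 of 15 alternatives) also fell, with limma adjusted p of 0.00285 and 0.0425, whereas Igfbp3 (53.0 ± 15.8 and 70.3 ± 3.59 RPKM), Irs1 (9.03 ± 0.402 and 7.51 ± 0.810 RPKM), Pappa (2.36 ± 0.751 and 1.23 ± 0.174 RPKM) and Pappa2, named after its values were seen (1.55 ± 0.415 and 1.27 ± 0.463 RPKM) did not pass.

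A further list held genes that set, copy, protect or remove DNA methylation, at imprints or elsewhere. At imprinted control regions Zfp57 and Trim28 recognize and mark the methylated copy, and Uhrf1 and Dnmt1 copy methylation to new DNA strands when cells divide, whereas the Dnmt3 proteins serve to set new methylation and the Tet proteins to remove it. Of 14 tested genes of this mixed list 8 fell (57.1%, against 21.1% of all genes) and 0 rose (against 14.7%) by limma at an adjusted p under 0.05, with a median log2 fold change of -0.61. The count of 0 became 1, namely Dnmt3l, with no filter, with no trend and with voom. The 6 mitotic markers described with the other cell type markers were also lower in every 4 month library (29.9% of all genes were), with sums of 68.8, 59.5 and 35.7 RPKM at PND2 and 4.80, 4.59 and 4.42 RPKM at 4 months, and their part in the levels of these genes was not tested. The 8 were Zfp57, Trim28, Uhrf1 and Dnmt1, and Dnmt3a, Dnmt3b, Tet1 and Tet3, which set or remove methylation. Zfp57 fell from 27.2, 31.3 and 24.2 RPKM to 2.96, 2.95 and 3.07 RPKM (log2 fold change -3.15, SE 0.13, limma adjusted p = 2.2e-05). Uhrf1 fell from 6.61, 9.86 and 6.57 RPKM to 0.880, 0.878 and 0.714 RPKM (log2 fold change -3.05, SE 0.23, limma adjusted p = 0.00017). The log2 fold change of Uhrf1 ranged from -3.19 to -2.23 over the alternatives. The other falls were smaller, at log2 fold changes of -1.17 for Dnmt1, -1.04 for the de novo methyltransferase Dnmt3a, -0.69 for Trim28 and -0.53 for the dioxygenase Tet3, with limma adjusted p of at most 0.0148. The Tet3 call was lost in 3 of 15 alternatives, among them the replicate block and the fits without PND2 replicate 2 or 4 month replicate 3.

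Dnmt3b and Tet1, named after their values were seen, were the other 2 that fell, and the Tet1 call was lost in 2 of 15 alternatives, the weakest being the fit that left out PND2 replicate 3 (limma adjusted p = 0.0671). Ctcf, the insulator protein that separates Igf2 from the H19 enhancers, had 32.8 ± 1.39 RPKM at PND2 and 28.1 ± 1.78 RPKM at 4 months and did not pass. Neither did Zfp445, which acts beside Zfp57 (37.4 ± 1.44 and 31.8 ± 4.30 RPKM), nor Smchd1 (6.74 ± 0.164 and 6.34 ± 0.803 RPKM) and Tet2 (6.05 ± 0.293 and 4.76 ± 0.540 RPKM). Of the other 2 that did not pass, both named after their values were seen, Ctcfl had 0.520 ± 0.133 and 0.665 ± 0.183 RPKM and Dnmt3l 0.0215 ± 0.0122 and 0.117 ± 0.0201 RPKM. The libraries of Dnmt3l did not overlap between the ages.

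**Figure D4:**
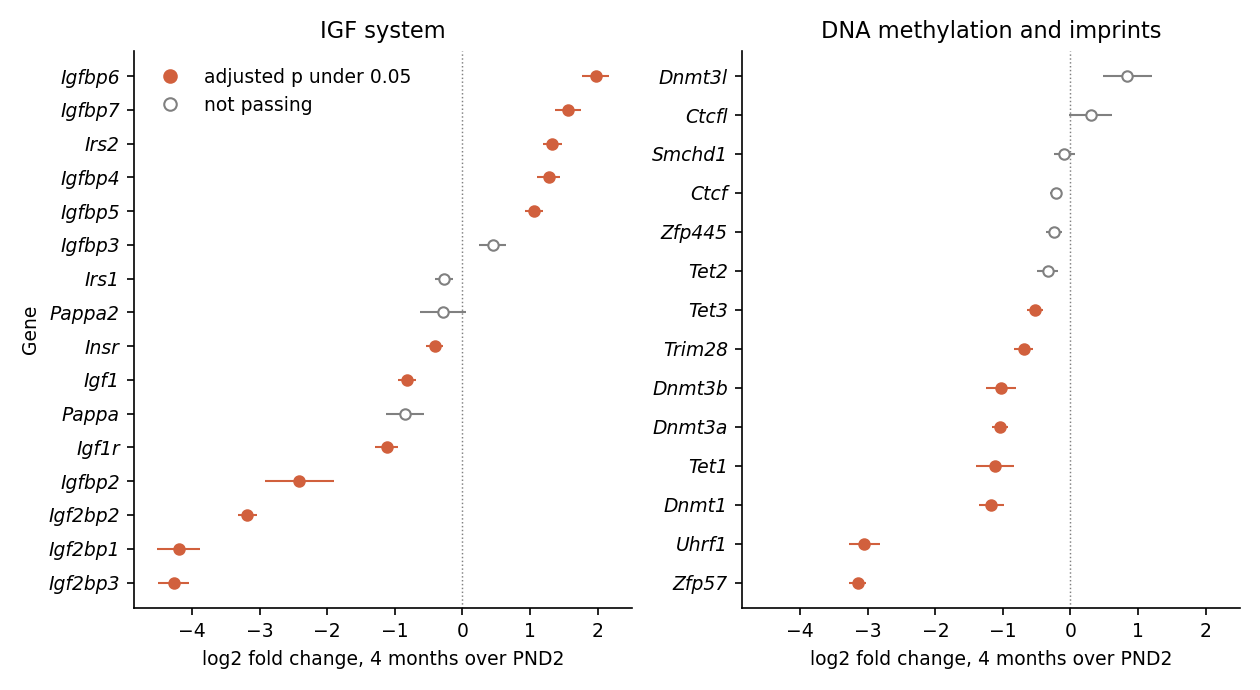
Log2 fold change at 4 months over PND2 with its standard error (bars) for 16 genes of the IGF system and 14 genes that act on DNA methylation or at imprints. Filled orange points passed limma at an adjusted p under 0.05 and open points did not. With 0.1 RPKM added, as drawn, Igf2bp1, Igf2bp2 and Igf2bp3 lie farthest to the left in the IGF system, and Zfp57 and Uhrf1 in the other list. With 1 RPKM added Igf2bp1 was at -1.79, whereas Igfbp2 ranged from -2.82 to -1.89 over the alternatives.

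The profiles most like those of Igf2, H19 and Dlk1 were sought among 14088 genes with a PND2 mean of 5 RPKM or more, by the Euclidean distance over the 6 libraries between values of log2(RPKM + 0.1), from each of which the gene's own mean had been subtracted. For Igf2 the 5 nearest were Igf2os (distance 0.542), the stefin Stfa2 (0.604), the transcriptional coactivator Cited1 (0.607), the vasohibin Vash2 (0.706) and the ligand Bmp7 (0.857). For H19 the 3 nearest, Gm27786, Mir675 and Gm27483, lie within H19, and then came the angiotensin receptor Agtr2 (0.530) and Stfa1 (1.17). For Dlk1 they were Stfa1 (0.727), Gm5483 (0.891), S100a9 (1.02), Stfa2 (1.17) and Mir675 (1.31). With 6 libraries in 2 ages the distance mostly reflects the size of the difference between the ages. Stfa1, Stfa2 and Gm5483 were listed at 0 in every 4 month library, so that the size of their difference, and with it their distances and their places in these orders, was set by the 0.1 RPKM that was added. The 4 month means of Igf2os, Cited1, Vash2, Bmp7, Agtr2 and S100a9 were at most 0.274 RPKM, where the added 0.1 RPKM also weighed on the distance.

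The tissue label was checked against markers of the cell types the dissected valve could hold. The counts of markers that did not overlap between the ages stand beside the 29.9% of all genes that were lower and the 20.0% that were higher in every 4 month library. All 10 valve interstitial markers were detected, and their summed level was 5137, 5622 and 5374 RPKM at PND2 and 4953, 4249 and 5299 RPKM at 4 months. Within this list Col1a1, Col3a1, Postn, Tbx20 and Nfatc1 were lower in every 4 month library than in every PND2 library, Vim, Lum and Twist1 were higher, and Sox9 and Scx overlapped, that is 5 lower and 3 higher of 10. Cardiomyocyte markers, led by Actc1, summed to 18045, 18892 and 21790 RPKM at PND2 and to 5896, 11423 and 7574 RPKM at 4 months, and 6 of the 10 genes were lower in every 4 month library than in every PND2 library. Smooth muscle markers, led by Acta2, summed to 7130, 8168 and 8227 RPKM and to 27379, 16365 and 19713 RPKM, and 5 of 5 genes were higher in every 4 month library. Muscle RNA was thus present in every library, and its composition differed between the ages.

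Adipocyte markers summed to 147, 63.8 and 78.1 RPKM at PND2 and to 344, 1427 and 326 RPKM at 4 months. At PND2 nearly all of the sum was Fabp4, at 147, 63.7 and 77.9 RPKM, and Cfd was at 0, 0.0355 and 0 RPKM. At 4 months Cfd led, with 217, 955 and 172 RPKM, and 4 month replicate 2 stood apart. Of their age that library had the highest level of Igf2, H19, Igf2r, Grb10 and Plagl1, the lowest of Dlk1, Meg3, Mest and Cdkn1c, and the middle one of Peg3. Of the 7 adipocyte markers 6 were higher in every 4 month library than in every PND2 library (20.0% of all genes were). Mitotic markers, led by Cdk1, were lower in every 4 month library for 6 of 6 genes and summed to 68.8, 59.5 and 35.7 RPKM at PND2 and to 4.80, 4.59 and 4.42 RPKM at 4 months, and endothelial markers, led by Pecam1, were likewise lower for 6 of 6 genes, with sums of 496, 378 and 524 RPKM and of 222, 226 and 211 RPKM. Skeletal muscle markers, led by Ckm, summed to 966, 931 and 1392 RPKM and to 264, 575 and 525 RPKM, and 5 of 6 genes were lower in every 4 month library. Nearly all of these sums came from Ckm and Acta1, whereas Myh1, Myh2 and Myh4 reached at most 2.75 RPKM in any library. None of the marker genes was at 0 in every library. Against the 20.0% of all genes that were higher without overlap, macrophage markers were so for 4 of 4 genes, T cell and Schwann cell markers for 3 of 4 each, and erythroid markers for 0 of 6, while of 4 brown adipocyte markers 1 was higher and 1 lower. The T cell markers were low, with sums of 0.388, 0.229 and 0.390 RPKM at PND2 and of 1.26, 2.26 and 1.96 RPKM at 4 months. The part of these cell types in the levels of the imprinted growth genes and of the other listed genes was not tested. Without 4 month replicate 2 the median log2 fold change of the 10 genes was -3.80.

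**Figure D5:**
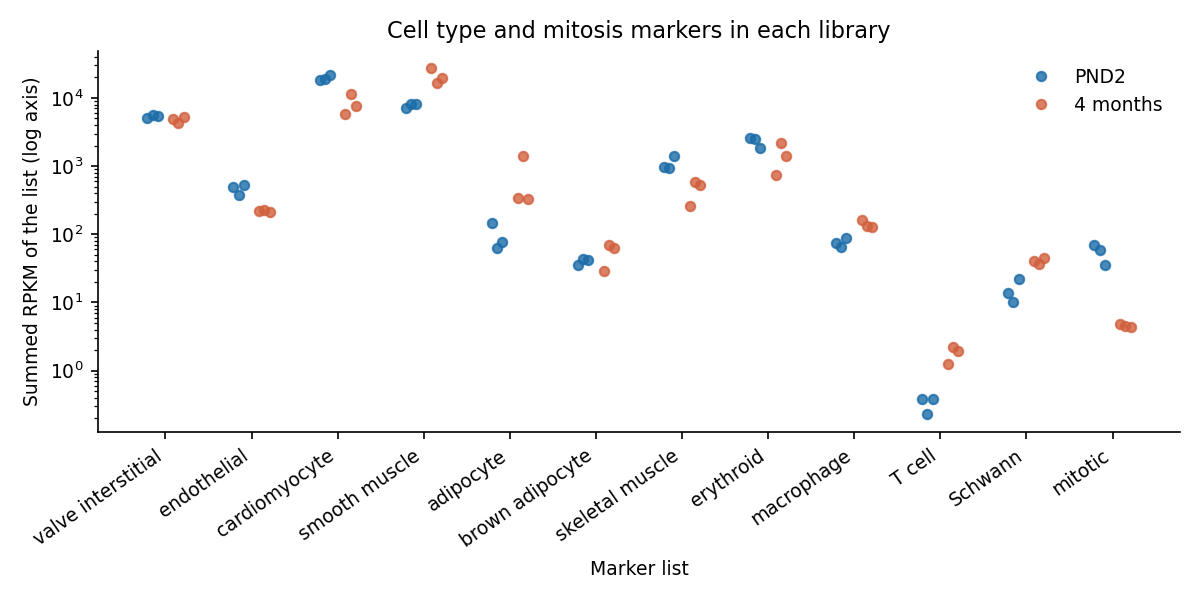
Summed RPKM (log axis) of each marker list in the PND2 (blue) and 4 month (orange) libraries. The summed valve interstitial markers overlap between the ages, although 5 of the 10 genes are lower and 3 higher without overlap. The sums of cardiomyocyte, endothelial and mitotic markers are lower in every library of 4 months, and 1 library of 4 months is high in adipocyte markers at 1427 RPKM.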

How the data were processed

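Aortic valve RNA of 3 PND2 and 3 4 month pools was sequenced by the authors as paired reads of 50 nt, aligned to mm10 with TopHat2 2.1.0 and counted on Ensembl genes and exons with easyRNASeq in R 3.2.2, per the study's methods and processing notes. The authors deposited RPKM values for 46983 genes and 448141 exons. Multiplied by exonic length and library total, 100% of the values above 0 gave whole reads (tolerance 0.01), which served for read numbers and for limma's voom. Whether the counting used strand, or shared reads between genes, is not given in the sources used here. Reads on genes summed to 2.31 to 2.36 times the totals.

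Genes that reached 0.1 RPKM in 3 libraries or more were fitted with limma 3.58.1 (eBayes with trend, R 4.3.3) on log2(RPKM + 0.1), with 2-sided tests, Benjamini-Hochberg adjustment and a threshold of 0.05. With 3 pools against 3, an exact permutation test cannot give a p below 0.1. Libraries of the same age correlated at 0.961 to 0.970 across genes and those of different ages at 0.911 to 0.922. Of 200 genes planted at 4-fold in simulated reads of 25617 genes the fit found 97%, with 17 false calls. The simulation gave all genes the same dispersion and changed only genes with a mean above 1 RPKM. Its rates therefore do not carry over to low or more variable genes of these data. The members and lists were chosen with earlier results of these data known. Outside the 10 members, a listed gene is named when it passed with a mean of at least 5 RPKM at either age, or otherwise when among up to 4 of the most abundant of the rest, and Igf2, H19 and Dlk1 each with its 5 nearest profiles. The alternatives were 1 or 0.01 as pseudocount, a minimum of 1 RPKM or none, a fit without the trend, median scaling, a replicate block, voom, a floor of 10 reads, and fits without 1 library. RefSeq sequences are of GRCm38.p6, the build named mm10. Python 3.11.15 with pandas 2.3.3, numpy 2.4.6 and matplotlib 3.10.9 was used for tables and figures.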

Additional observations from a re-analysis of the deposited data

How the results depend on the processing

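The 10 imprinted growth genes kept lower 4 month levels under every alternative run, with a median log2 fold change of -3.86 to -3.61. Adding 1 RPKM in place of 0.1 moved Dlk1 to -4.75, Plagl1 to -4.08 and Mest to -4.21 on the log2 scale, and outside the members Igf2os from -5.03 to -2.93, Igf2bp1 from -4.20 to -1.79 and Igf2bp3 from -4.27 to -2.95. Of the 41 list genes called under the naming rule, 37 passed under every alternative, and Snurf, Cdkn1b, Insr and Tet3 did not, with none reversed. Of the called genes named outside that rule, Tet1, Slc22a18, Slc22a2, Tspan32, Begain, Usp29 and Zim3 also lost their call, in 2 to 8 alternatives. The number of neighbors in the same clusters that rose was 2 in place of 4 with a filter at 1 RPKM and with a replicate block, and 2 to 3 when 1 library was left out. The number of DNA methylation and imprint genes that rose was 1, namely Dnmt3l, in place of 0 with no filter, with no trend and with voom. Over all genes, 9273 differed, 9696 with voom and 6447 without PND2 replicate 3, where the lower genes numbered 3503 in place of 5463. The cause of these shifts was not tested. Median scaling moved the median of all genes from -0.14 to -0.02 and that of the 10 members from -3.81 to -3.69. Replicate numbers do not pair the samples (correlations of same-numbered deviations 0.0439, -0.0608 and -0.160), and the replicate block called 7167 genes. In this balanced design the block cannot change a fold change. Low levels, such as Dlk1 at 4 months with 23 to 92 reads, are limited by depth.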
